A study of Homo sapiens with 4 samples.

Results

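Death receptor signalling was examined in 4 cultures of Nalm-6 cells through 9 genes, chosen by name for their place in the pathway: the receptors FAS, TNFRSF10A, TNFRSF10B, TNFRSF10C and TNFRSF10D, the adaptor FADD, the initiator caspases CASP8 and CASP10, and the regulator CFLAR. The 9 genes were represented by 16 probes, of 41000 probes and 18203 named genes on the array. A probe was assigned to a gene when the RefSeq accession printed with it belonged to that gene, and the choice was made with earlier results of these data known.

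Nalm-6 is a human pre-B leukemia cell line. The study asked how subunits of the INO80 chromatin remodeling complex, which shifts nucleosomes with the energy of ATP, act on transcription during oxidative stress caused by heme. The 4 groups were wild-type cells (WT), a knockout of actin-related protein 5 (Arp5 KO), a knockout of actin-related protein 8 (Arp8 KO), and a culture whose label names overexpression of Arp8 (Arp8 OE). Each group had 1 one-color array, so no difference below has a biological replicate behind it, and the groups were not tested against each other. Heme was given at 20 uM for 12 h by the treatment protocol, but the labels disagreed for both knockouts, whose treatment field reads no heme while their titles name heme. If that field is right, genotype and treatment cannot be told apart in any comparison of a knockout with WT or Arp8 OE. The source name reads no heme for Arp5 KO alone. If that name is right, the same holds for every comparison with Arp5 KO, including Arp8 KO against Arp5 KO. The Arp5 KO line was made by disrupting both alleles with a targeting vector, and the Arp8 KO line came from earlier work. The paper states that conditional knockout of Arp8 was lethal to cells, whereas Arp5 KO cells lived and grew more slowly. The part of viability or growth in the levels below was not tested. Each group is 1 culture, so a difference between lines or cultures cannot be told apart from an effect of the disrupted gene.

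In the extrinsic pathway of apoptosis, ligands of the tumor necrosis factor family bind receptors with a cytoplasmic death domain, the adaptor FADD joins that domain through its own, and caspase-8 or caspase-10 is activated on the assembled complex. FAS binds FAS ligand, TNFRSF10A (DR4) and TNFRSF10B (DR5) bind TRAIL and signal death, and TNFRSF10C (DcR1) and TNFRSF10D (DcR2) bind TRAIL without a functional death domain and act as decoys. CFLAR encodes c-FLIP, a caspase-8 homologue without protease activity that competes for the complex. Precursor B cells and the leukemias derived from them are known to carry several of these receptors at the surface.

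Windows of sequence upstream of a transcript start, from RefSeq, were used for 4 of the 9 genes (FAS, FADD, CASP8 and CFLAR). No window was used for the other 5 genes, TNFRSF10B among them, so their upstream sequence was not examined. The 250 bases before the first annotated start of 3 of them are shown on the plus strand, 5′ to 3′ toward the start: FAS, whose level differed between the arrays, beside FADD and CASP8, whose levels differed little. Capitals mark the GC box GGGCGG on either strand. The windows are chr10:88990548-88990797 for FAS, chr11:70203046-70203295 for FADD and chr2:201233213-201233462 for CASP8, all in GRCh38.p14.
FAS: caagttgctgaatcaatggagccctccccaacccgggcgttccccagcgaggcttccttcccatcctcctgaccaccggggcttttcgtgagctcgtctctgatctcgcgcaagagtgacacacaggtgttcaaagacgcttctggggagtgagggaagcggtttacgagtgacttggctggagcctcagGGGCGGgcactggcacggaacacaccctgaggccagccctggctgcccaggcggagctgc
FADD: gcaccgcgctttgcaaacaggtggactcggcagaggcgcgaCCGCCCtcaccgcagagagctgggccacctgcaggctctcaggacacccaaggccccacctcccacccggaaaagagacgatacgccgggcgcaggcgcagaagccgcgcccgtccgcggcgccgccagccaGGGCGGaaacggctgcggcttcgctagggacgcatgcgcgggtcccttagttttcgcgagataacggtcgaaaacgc
CASP8: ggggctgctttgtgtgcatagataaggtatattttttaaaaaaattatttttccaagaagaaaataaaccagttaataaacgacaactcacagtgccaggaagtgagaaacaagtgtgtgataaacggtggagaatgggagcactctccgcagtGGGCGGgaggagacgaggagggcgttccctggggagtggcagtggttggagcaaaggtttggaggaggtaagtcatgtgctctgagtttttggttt
Each of the 3 windows held a GC box, as did 42.6% of the 35116 windows of the same length examined before annotated starts. Over all 11 windows of the 4 genes, 7 held a GC box and 1 held the TATA box TATAAA (10.7% of the 35116 windows). The NF-kB site was held by 0 (0.179% of the 35116 windows) and a p53 half-site by 2 (5.57% of the 35116 windows). Windows of the same gene can overlap, and the same GC box of FAS is counted in more than 1 window. The 2 windows with a p53 half-site lie before other starts of FAS and CASP8 than those shown.

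Levels are given as log2 of the background-subtracted signal of a probe over the 75th percentile of its array, so that 0 is the 75th percentile and a difference of 1 is 2-fold. Levels of different probes are not compared, because each probe binds its target with its own strength. The arrays lay on 1 slide, had the same scan time, and carried 55.8% to 57.4% of probes well above background, a call made by the scanner software, with 0 saturated spots. The median SD between spots of the 264 probes printed 10 times was 0.06 on each array, and this technical SD is the only error that could be given. It holds no biological spread and no error of labelling, hybridization or scaling between arrays. A gap beyond 2 technical SD is thus beyond the spread of spots alone. For a probe printed once this SD was taken from the 20 replicated probes nearest in level. For a probe printed 10 times it was the SD of the differences between its own spots. It thus describes single spots, and not the error of a mean over spots. The ACTR5 probe stood 19.3-fold below WT on the Arp5 KO array. The 2 ACTR8 probes were 1.44-fold and 1.60-fold lower in Arp8 KO, and differed by 0.02 and -0.01 on the log2 scale between Arp8 OE and WT, so that the overexpression named by the label was not seen at these probes. Whether the ACTR8 probes lie in the disrupted part of the gene was not analysed here. All 10 markers of precursor B cells examined (CD79A, VPREB1, PAX5 and others) were well above background on all 4 arrays, but their levels were not alike: in Arp8 KO against WT, CD22 was 5.99-fold lower, VPREB1 2.39-fold lower and DNTT 3.43-fold higher. Of the markers of other cell types, 4 of 6 for T and NK cells, 3 of 5 for myeloid cells, 1 of 3 for erythroid cells and 1 of the 2 with a probe for fibroblasts were well above background on at least 1 array. NKG7, CD14 and HBA1 were so on all 4 arrays, CD8A and PDGFRB on all but Arp8 KO, CSF1R on 2, and KLRD1, LYZ and CD3E on 1 each, whereas CD3D, CD2, MPO, ITGAM, HBB, ALAS2 and COL1A2 were so on no array. The summed level of the list, in units of the 75th percentile, was 0.265 to 0.486 for T and NK cells, 0.170 to 0.220 for myeloid cells, 0.0905 to 0.112 for erythroid cells and 0.0398 to 0.171 for fibroblasts. The part of these markers in the receptor levels was not tested.

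The receptors FAS and TNFRSF10B were higher in Arp8 KO than in the other 3 groups, TNFRSF10B was also higher in Arp8 OE than in WT, and the adaptor, CASP8 and CFLAR differed by less than 1.5-fold between any pair of arrays. Of the 16 probes, 10 were well above background on all 4 arrays, which covers FAS, TNFRSF10B, FADD, CASP8 and CFLAR. The TNFRSF10A probe was so on 3 arrays. The 5 probes for TNFRSF10C, TNFRSF10D and CASP10 were well above background on no array, and no difference is given for them. This left 11 probes of 6 genes in each comparison. The 3 comparisons below use the same WT array, so that an error of that array enters all of them.

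**Figure D1:**
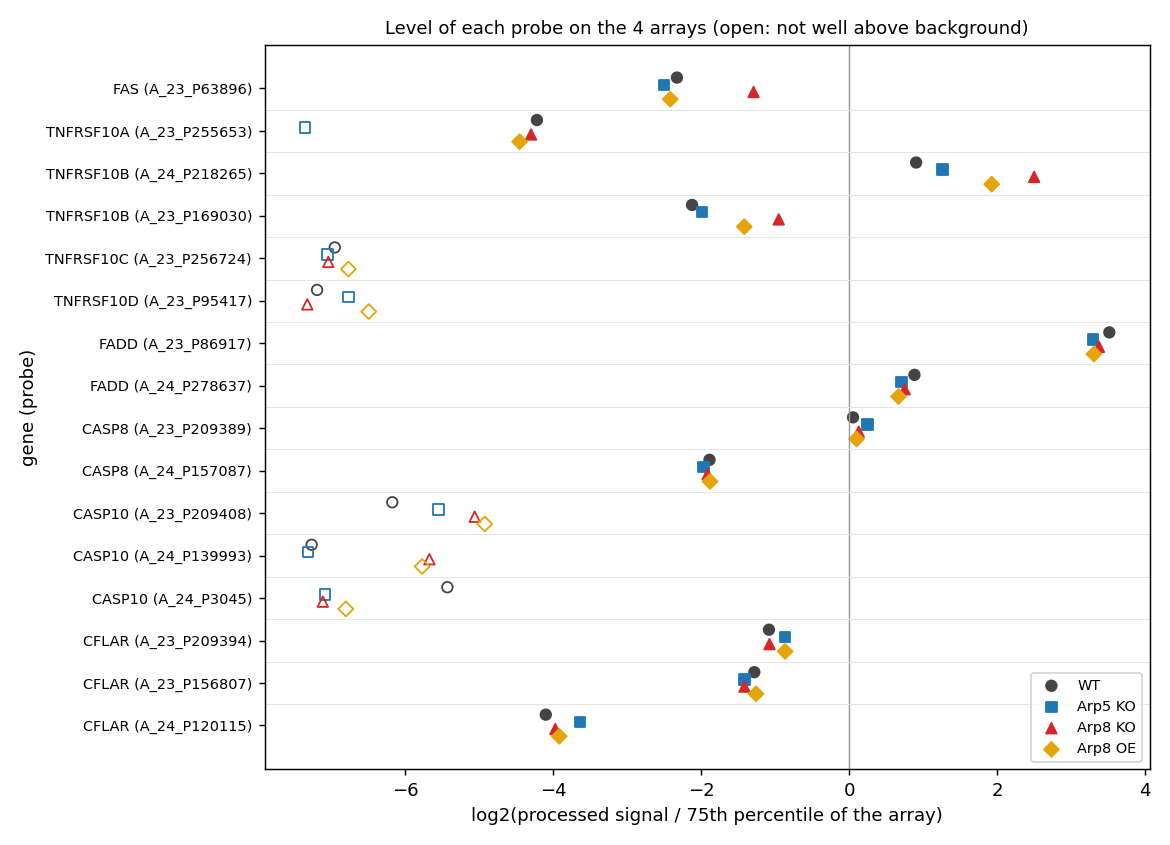
Levels of the 16 probes on the 4 arrays, as log2 of the processed signal over the array's 75th percentile (horizontal axis), with 1 row for each gene and probe. Filled symbols are well above background and open symbols are not. The Arp8 KO triangle stands right of the other 3 symbols for FAS and both TNFRSF10B probes, and all symbols of TNFRSF10C, TNFRSF10D and CASP10 are open.

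In Arp8 KO against WT, 3 of the 11 probes were past 2-fold higher and 0 past 2-fold lower. Over all 24578 probes compared, 3.37% were past 2-fold higher and 4.35% past 2-fold lower. The 3 probes belong to 2 genes, FAS and TNFRSF10B. The median difference of the 11 probes was 0.01 and that of all probes 0.03 on the log2 scale, so the shift lay in these receptors and not across the group.

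In Arp8 OE against WT, 1 of the 11 probes was past 2-fold higher, the brighter TNFRSF10B probe, and 0 were past 2-fold lower. The background was 2.96% higher and 2.15% lower over 24177 probes. The median of the 11 probes was 0.02 against 0.00 over all probes.

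In Arp5 KO against WT, 0 of the 11 probes were past 2-fold in either direction, where 1.69% of 24285 probes were past 2-fold higher and 2.01% lower. The median of the 11 probes was -0.08 against 0.00 over all probes. At these background shares, a count of 0 or 1 among 11 probes is close to what all probes gave.

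**Figure D2:**
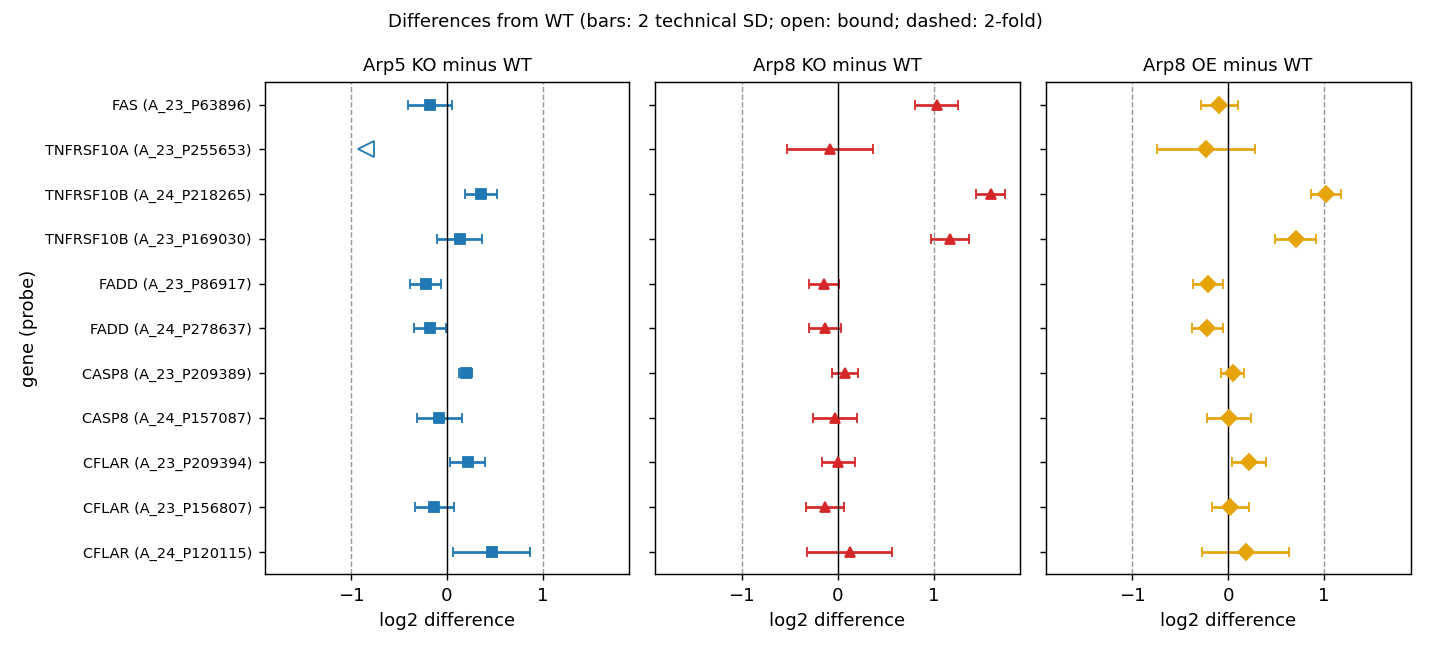
Log2 differences from WT (horizontal axis) of the 11 probes compared, in 1 panel each for Arp5 KO, Arp8 KO and Arp8 OE. Symbols are differences of 1 array from 1 array, bars span 2 technical SD on either side, the open triangle is a bound for a probe not well above background in Arp5 KO, and dashed lines mark 2-fold. In the Arp8 KO panel FAS and both TNFRSF10B probes lie at 1.04, 1.60 and 1.17, and the other 8 probes lie between -0.14 and 0.13.

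FAS, the receptor of FAS ligand, was measured by 1 probe printed 10 times. Its median signal was 147.5 on the WT array, 126.9 on Arp5 KO, 264.6 on Arp8 KO and 122.7 on Arp8 OE, and its log2 levels, means over the spots, were -2.33, -2.50, -1.29 and -2.42. The Arp8 KO array stood above the other 3, whose levels lay within 0.18 of each other. Against WT, FAS was 2.05-fold higher in Arp8 KO, a log2 difference of 1.04 ± 0.11 (technical SD, 10 spots). All 10 spots were higher and 7 of them past 2-fold. The spots did not overlap, with -1.43 to -1.01 in Arp8 KO and -2.47 to -2.15 in WT. Because the cultures were measured in bulk, more cells that express a gene and more RNA per cell cannot be told apart, here or below.

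The difference of FAS from WT was -0.18 ± 0.11 in Arp5 KO and -0.09 ± 0.09 in Arp8 OE (technical SD, 10 spots each), and in both cases the spots overlapped those of WT. FAS was lower on all 10 spots in Arp5 KO and on 9 of 10 in Arp8 OE, by less than 2 technical SD of single spots. The error of the mean over the spots is smaller than this SD and was not used. Direct comparison gave 1.21 ± 0.15 for Arp8 KO over Arp5 KO and 1.13 ± 0.11 for Arp8 KO over Arp8 OE, so that Arp8 KO was the highest array whichever of the other 3 it was set against. The order below Arp8 KO (WT, Arp8 OE, Arp5 KO) had no gap beyond 2 technical SD of single spots.

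Among the 22400 probes well above background in both Arp8 KO and WT, 2.32% were at least as much higher in Arp8 KO as the FAS probe. The FAS value lies close to 2-fold and depended on the background correction: with the normexp method it fell to 0.75, below 2-fold. Of its 10 spots, 2 lay beside a spot that was bright on Arp8 KO alone. Without these 2 spots the fold was 2.01.

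**Figure D3:**
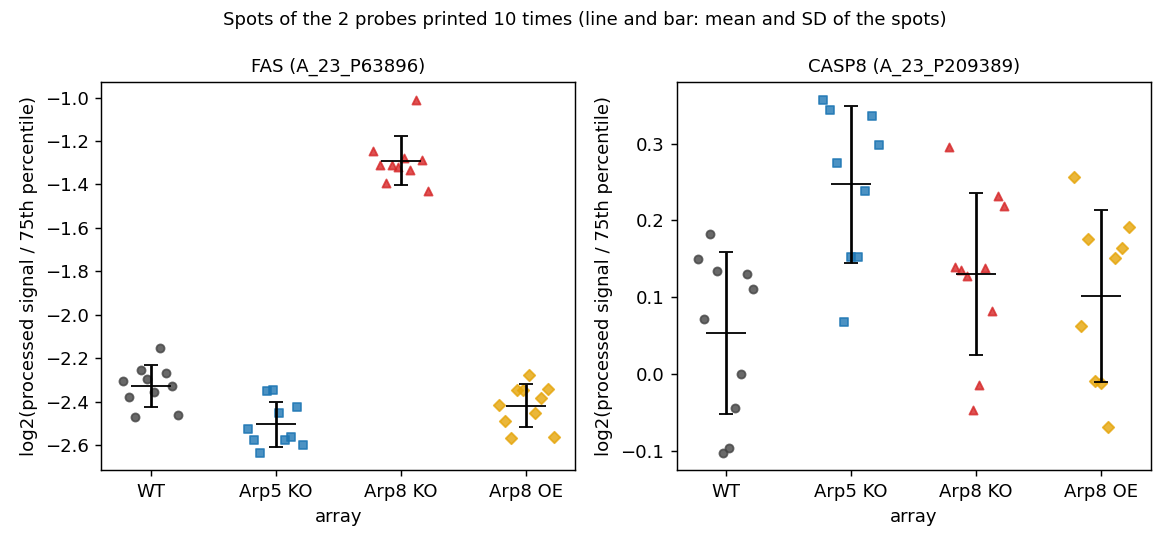
Log2 levels (vertical axis) of the single spots of the FAS probe (left) and of the brighter CASP8 probe (right), both printed 10 times, on the 4 arrays. The vertical scales differ, spots called outliers by the scanner software are left out, and lines with bars are the mean and SD of the spots. The FAS spots of Arp8 KO lie apart from those of the other 3 arrays, and the CASP8 spots of all 4 arrays overlap.

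TNFRSF10B, the TRAIL receptor DR5, was measured by 2 probes printed once each. The signal of the brighter probe (A_24_P218265) was 1379 on the WT array, 1775 on Arp5 KO, 3717 on Arp8 KO and 2465 on Arp8 OE, with log2 levels of 0.91, 1.26, 2.50 and 1.93. The signal of the other probe (A_23_P169030) was 169 on the WT array, 186 on Arp5 KO, 339 on Arp8 KO and 243 on Arp8 OE, with log2 levels of -2.12, -1.99, -0.95 and -1.42. Both probes put the arrays in the same order, with Arp8 KO above Arp8 OE, Arp8 OE above Arp5 KO and Arp5 KO above WT. Every step was beyond 2 technical SD except that from WT to Arp5 KO on the dimmer probe.

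In Arp8 KO against WT, TNFRSF10B was 3.02-fold higher by the brighter probe (1.60 ± 0.07, technical SD) and 2.25-fold higher by the other (1.17 ± 0.10). With normexp the differences were 1.51 and 0.89, so the call of the dimmer probe was lost. Of the 22400 probes measured on both arrays, 0.589% were at least as much higher as the brighter probe and 1.64% as the other. In Arp8 OE against WT the fold was 2.03 (1.02 ± 0.08) and 1.63 (0.71 ± 0.11). The brighter probe stood barely past 2-fold there, and fell to 0.99 with scaling to the median and to 0.93 with normexp. In Arp5 KO against WT the differences were 0.36 ± 0.08 and 0.13 ± 0.12.

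The lower of the 2 differences between Arp8 KO and Arp5 KO was 1.04 ± 0.10 and the higher 1.24 ± 0.08, so TNFRSF10B was past 2-fold between the knockouts on both probes. Between Arp8 KO and Arp8 OE it was 0.57 ± 0.07 and 0.47 ± 0.09, below 2-fold. In these direct comparisons, 3 of the 11 probes were past 2-fold higher in Arp8 KO than in Arp5 KO, where 2.53% of all probes were higher and 3.18% lower, and 1 of the 11, the FAS probe, was past 2-fold higher in Arp8 KO than in Arp8 OE, where 1.64% of all probes were higher and 3.78% lower. No spot of TNFRSF10B lay beside a spot bright on 1 array alone.

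The 2 probes of TNFRSF10B differed in size but not in direction in any of the comparisons with WT. The step was larger on the brighter probe in each case (1.60 against 1.17 in Arp8 KO, 1.02 against 0.71 in Arp8 OE and 0.36 against 0.13 in Arp5 KO). Which transcripts each probe binds was not analysed here.

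**Figure D4:**
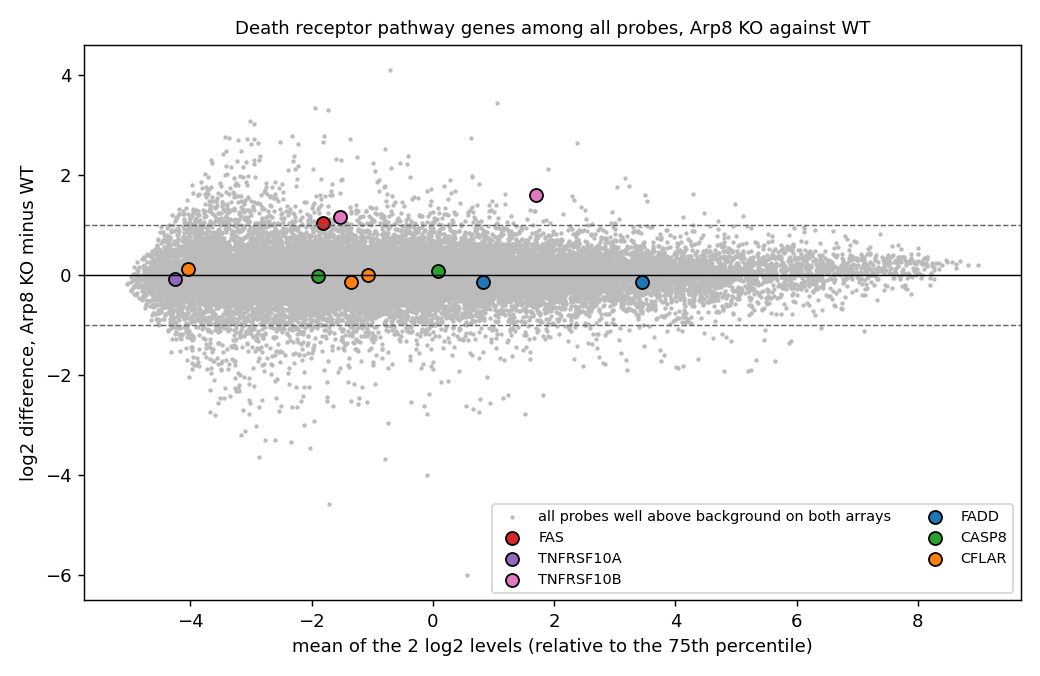
Log2 difference of Arp8 KO from WT (vertical axis) against the mean of the 2 log2 levels (horizontal axis) for the 22400 probes well above background on both arrays (grey) and for the death receptor genes (large symbols). Dashed lines mark 2-fold. FAS and the 2 TNFRSF10B probes lie above the upper dashed line, and the probes of TNFRSF10A, FADD, CASP8 and CFLAR lie near 0.

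TNFRSF10A, the other TRAIL receptor with a death domain (DR4), had 1 probe printed once, with a signal of 39.4 on the WT array, 4.51 on Arp5 KO, 33.3 on Arp8 KO and 29.5 on Arp8 OE. In Arp5 KO it was not well above background, which gives a bound under this processing: against WT, TNFRSF10A was at least 1.79-fold lower, a value short of 2-fold. This bound, -0.84 on the log2 scale, depended on the processing. The difference was -0.49 with normexp and -3.14 where the dim signal was taken as measured. The log2 difference from WT was -0.08 ± 0.23 in Arp8 KO and -0.23 ± 0.25 in Arp8 OE (technical SD), less than 1 SD in both. In Arp8 KO TNFRSF10B was past 2-fold higher, and TNFRSF10A lay within its technical error of WT. At a signal this close to background, the probe could not show a difference as small as that of TNFRSF10B in Arp5 KO.

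The decoy receptors were near background throughout. The signal of TNFRSF10C was 5.93 on the WT array, 5.58 on Arp5 KO, 4.98 on Arp8 KO and 5.93 on Arp8 OE, and that of TNFRSF10D was 5.02, 6.78, 4.09 and 7.18 in the same order. Both probes failed the call of well above background on all 4 arrays, and their order over the arrays has no meaning at this signal.

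FADD, the adaptor that links the receptors to the caspases, had 2 probes printed once each. The brighter had a signal of 8431 on the WT array, 7266 on Arp5 KO, 6823 on Arp8 KO and 6425 on Arp8 OE (A_23_P86917). The differences from WT on the log2 scale were -0.14 for Arp8 KO, -0.22 for Arp5 KO and -0.21 for Arp8 OE, each with a technical SD of 0.08. The second probe (A_24_P278637), with signals of 1357, 1207, 1105 and 1029 (WT, Arp5 KO, Arp8 KO, Arp8 OE), gave -0.13 for Arp8 KO, -0.18 for Arp5 KO and -0.22 for Arp8 OE. WT was the highest array on both probes, by at most 1.17-fold. The gap exceeded 2 technical SD in Arp5 KO and Arp8 OE on both probes and in Arp8 KO on neither. Because the technical SD holds no error between arrays, gaps this small may not be resolved. The sign of these differences was the same under each scaling tried. The spot of the brighter FADD probe had 1 neighbour bright on WT alone, and its part was not tested.

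CASP8, the initiator caspase of the pathway, had a probe printed 10 times (A_23_P209389) and one printed once (A_24_P157087). The median signal of the former was 783.1 on the WT array, 894.7 on Arp5 KO, 721.0 on Arp8 KO and 718.8 on Arp8 OE, and its log2 levels, again means over the spots, were 0.05, 0.25, 0.13 and 0.10. It was 0.19 ± 0.03 higher in Arp5 KO than in WT on the log2 scale, and higher on 9 of the 9 spots that were usable on both arrays, a difference of 1.14-fold. In Arp8 KO and Arp8 OE the difference was 0.08 ± 0.07 and 0.05 ± 0.06. The second probe, with signals of 198.8, 189.5, 174.2 and 176.0, gave -0.03 ± 0.11 for Arp8 KO, -0.08 ± 0.12 for Arp5 KO and 0.01 ± 0.12 for Arp8 OE. The small step in Arp5 KO was therefore seen on 1 of the 2 probes of CASP8.

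CASP10, the second initiator caspase, had 3 probes, printed once each, and none was well above background on any array. Their signals ran from 4.64 to 21.3. The probe A_23_P209408 had 10.2 on the WT array, 15.7 on Arp5 KO, 19.6 on Arp8 KO and 21.3 on Arp8 OE, and the probe A_24_P3045 had a log2 level of -5.43 in WT and between -7.12 and -6.81 on the other arrays. The 3 probes gave different orders of the arrays, and no difference in CASP10 was detectable at this signal.

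CFLAR, the inhibitor at the receptor, had 3 probes printed once each. The brightest (A_23_P209394) had signals of 347.0 on the WT array, 405.0 on Arp5 KO, 311.2 on Arp8 KO and 355.6 on Arp8 OE. Its log2 differences from WT were 0.01 ± 0.09 for Arp8 KO, 0.21 ± 0.09 for Arp5 KO and 0.22 ± 0.09 for Arp8 OE (technical SD). The second (A_23_P156807), with signals of 302.5, 277.9, 246.0 and 270.7, gave -0.13 ± 0.10 for both knockouts and 0.02 ± 0.10 for Arp8 OE. The dimmest (A_24_P120115), with signals of 42.8, 59.5, 41.8 and 42.8, gave 0.13 ± 0.22 for Arp8 KO, 0.47 ± 0.20 for Arp5 KO and 0.18 ± 0.23 for Arp8 OE, and lay beside a spot bright on Arp8 KO alone.

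The 3 CFLAR probes thus differed in sign in Arp5 KO, where the negative value lay within 2 technical SD of WT. None was past 1.5-fold in any comparison with WT. The probes are annotated to different RefSeq transcripts of CFLAR, and which transcripts each binds was not analysed here. In Arp8 KO, where FAS and TNFRSF10B stood past 2-fold, all 7 probes of FADD, CASP8 and CFLAR lay between -0.14 and 0.13 on the log2 scale. Some of these genes are neighbours in the genome. In the RefSeq annotation of GRCh38.p14, CFLAR, CASP10 and CASP8 followed each other on chromosome 2 with 0 other protein-coding genes between them, and the 4 TRAIL receptor genes did so on chromosome 8.

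The most alike patterns over the 4 arrays to that of the brighter TNFRSF10B probe, which had the widest range of the member probes well above background on all arrays, were sought among 16566 probes with a gene name that were well above background on all arrays. Likeness was the Euclidean distance between the 4 log2 levels after the mean of each probe was subtracted. The nearest genes were SYT15 (0.12), STK32B (0.16), SPHK1 (0.17), DENND2D (0.20) and PRKAG2-AS1 (0.24), and the other probe of TNFRSF10B itself stood at 0.31. These genes were each named from 1 probe. SYT15 has 2 other probes and STK32B 1, whose patterns are not given here. SPHK1 encodes sphingosine kinase 1 and SYT15 a synaptotagmin. The difference of SYT15 from WT, for example, was 1.52 for Arp8 KO, 0.20 for Arp5 KO and 0.97 for Arp8 OE. With 4 arrays, such nearness is a description only.

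Other genes of the pathway were taken from 8 lists covering ligands, other receptors of the family, adaptors and kinases, intrinsic caspases, inflammatory caspases, mitochondrial factors, caspase inhibitors and necroptosis. The lists held 39 genes with 55 probes. In Arp5 KO against WT, 3 of the 42 probes compared were past 2-fold higher (7.14%) and 2 lower (4.76%), where all probes gave 1.69% and 2.01%. In Arp8 KO, 3 of 43 were higher (6.98%) and 4 lower (9.30%), where all probes gave 3.37% and 4.35%. In Arp8 OE, 2 of 43 were higher (4.65%) and 3 lower (6.98%), where all probes gave 2.96% and 2.15%. The median over the lists was -0.04 for Arp8 KO, -0.03 for Arp5 KO and -0.08 for Arp8 OE on the log2 scale. The probes past 2-fold in a knockout belonged to 5 genes, TNF, TNFRSF21, EDAR, CRADD and CASP1.

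Among the ligands, TNF, which signals through its own receptors, had log2 levels of -0.63 on the WT array, -2.31 on Arp5 KO, -3.62 on Arp8 KO and -2.29 on Arp8 OE on its brighter probe. It was 3.20-fold lower than WT in Arp5 KO, 7.94-fold lower in Arp8 KO and 3.14-fold lower in Arp8 OE. The second TNF probe, printed 10 times, was 2.30-fold lower in Arp5 KO, and lower by at least 3.03-fold in Arp8 KO and at least 2.37-fold in Arp8 OE. WT was thus the highest array on both TNF probes. The 10 spots of the second probe had 2 neighbours bright on Arp5 KO alone and 3 bright on Arp8 KO alone, whose part was not tested. FAS ligand (FASLG) was well above background on 1 of its 2 probes in WT and Arp8 KO alone, 0.36 lower in Arp8 KO on the log2 scale and not past 2-fold in any comparison. TRAIL itself (TNFSF10) was well above background on no array, so its receptors were measured in cells whose own TRAIL transcript was not detected by this probe.

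Among the other receptors, TNFRSF21 (DR6), a death domain receptor, had log2 levels of 0.34 on the WT array, 1.52 on Arp5 KO, 1.74 on Arp8 KO and 0.86 on Arp8 OE. It was 2.27-fold higher in Arp5 KO and 2.63-fold higher in Arp8 KO, and the second probe gave 2.30-fold and 2.57-fold. In Arp8 OE the probes differed, with 1.43-fold on the first and 2.83-fold on the second (A_23_P42065). The spot of the second probe had 1 neighbour bright on Arp8 OE alone and that of the first (A_23_P30666) 1 bright on WT alone, and their part was not tested. Unlike FAS and TNFRSF10B, TNFRSF21 was thus past 2-fold in both knockouts. EDAR, the ectodysplasin receptor, was well above background in Arp8 KO and Arp8 OE alone, at least 2.61-fold and at least 3.06-fold higher than in WT. Its single spot had 1 neighbour bright on Arp8 KO alone and 1 bright on Arp8 OE alone, and their part in its signal was not tested.

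TNFRSF1A, the main receptor of TNF, was not past 2-fold on either probe, with -0.32 and -0.27 for Arp5 KO, -0.44 and -0.54 for Arp8 KO, and 0.22 and 0.36 for Arp8 OE. The soluble decoy TNFRSF6B (DcR3), which binds FAS ligand, was 0.77 higher in Arp5 KO and 0.21 higher in Arp8 KO on the log2 scale, short of 2-fold.

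The 9 adaptors, kinases and modulators at the receptor had 10 probes. Of these, 1 was past 2-fold lower in Arp8 KO, where 4.35% of all probes were, and 0 were past 2-fold in the other comparisons with WT. A count of 1 among 10 is close to what all probes gave. CRADD, an adaptor with a death domain that recruits caspase-2, had log2 levels of 1.91 on the WT array, 1.71 on Arp5 KO, 0.79 on Arp8 KO and 1.70 on Arp8 OE, which put it 2.17-fold below WT in Arp8 KO. Its single spot had 2 neighbours bright on WT alone, and their part was not tested. By comparison, 18.9% of the 22218 single-spot probes measured in both Arp8 KO and WT lay beside a spot bright on 1 array alone. TRADD and RIPK1, which act at the TNF receptor, differed from WT by at most 0.37 in either direction.

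CASP6, CASP9 and CASP2 had 6 probes, of which 0 were past 2-fold in any comparison with WT, where 3.37% of all probes were past 2-fold higher and 4.35% lower in Arp8 KO, so the count is near the background. The widest difference among them was -0.74 for CASP6 in Arp8 KO. The mitochondrial factors BID, APAF1, CYCS, DIABLO and HTRA2 also had 0 of 8 probes past 2-fold in any comparison with WT. The measured inhibitors XIAP, BIRC2, BIRC5 and BIRC6 had 0 of 4. Over all probes, 1.69% were past 2-fold higher and 2.01% lower in Arp5 KO, and 2.96% and 2.15% in Arp8 OE. At these shares, a count of 0 among so few probes is near the background in each comparison. MLKL, the effector of necroptosis, was 0.56 and 0.63 higher than WT in Arp5 KO and 0.70 and 0.64 higher in Arp8 KO on its 2 probes, below 2-fold, while the necroptosis kinase RIPK3 was well above background on no array.

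The inflammatory caspases were lower on the Arp8 KO and Arp8 OE arrays than on the WT and Arp5 KO arrays. Of these caspases, CASP1 alone was past 2-fold higher in Arp5 KO than in WT. CASP1, which processes interleukin-1 beta, had log2 levels of -2.62 in WT and -1.40 in Arp5 KO, 2.32-fold higher, and was not well above background in Arp8 KO and Arp8 OE, where it was at least 5.85-fold and at least 4.59-fold lower than in WT. CASP4 and CASP5, its neighbours on chromosome 11 with 0 other protein-coding genes between the 3, were not past 2-fold. They were between 0.70 and 0.85 lower than WT in both Arp8 KO and Arp8 OE on the log2 scale, and at 0.04, 0.05 and -0.01 in Arp5 KO.

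**Figure D5:**
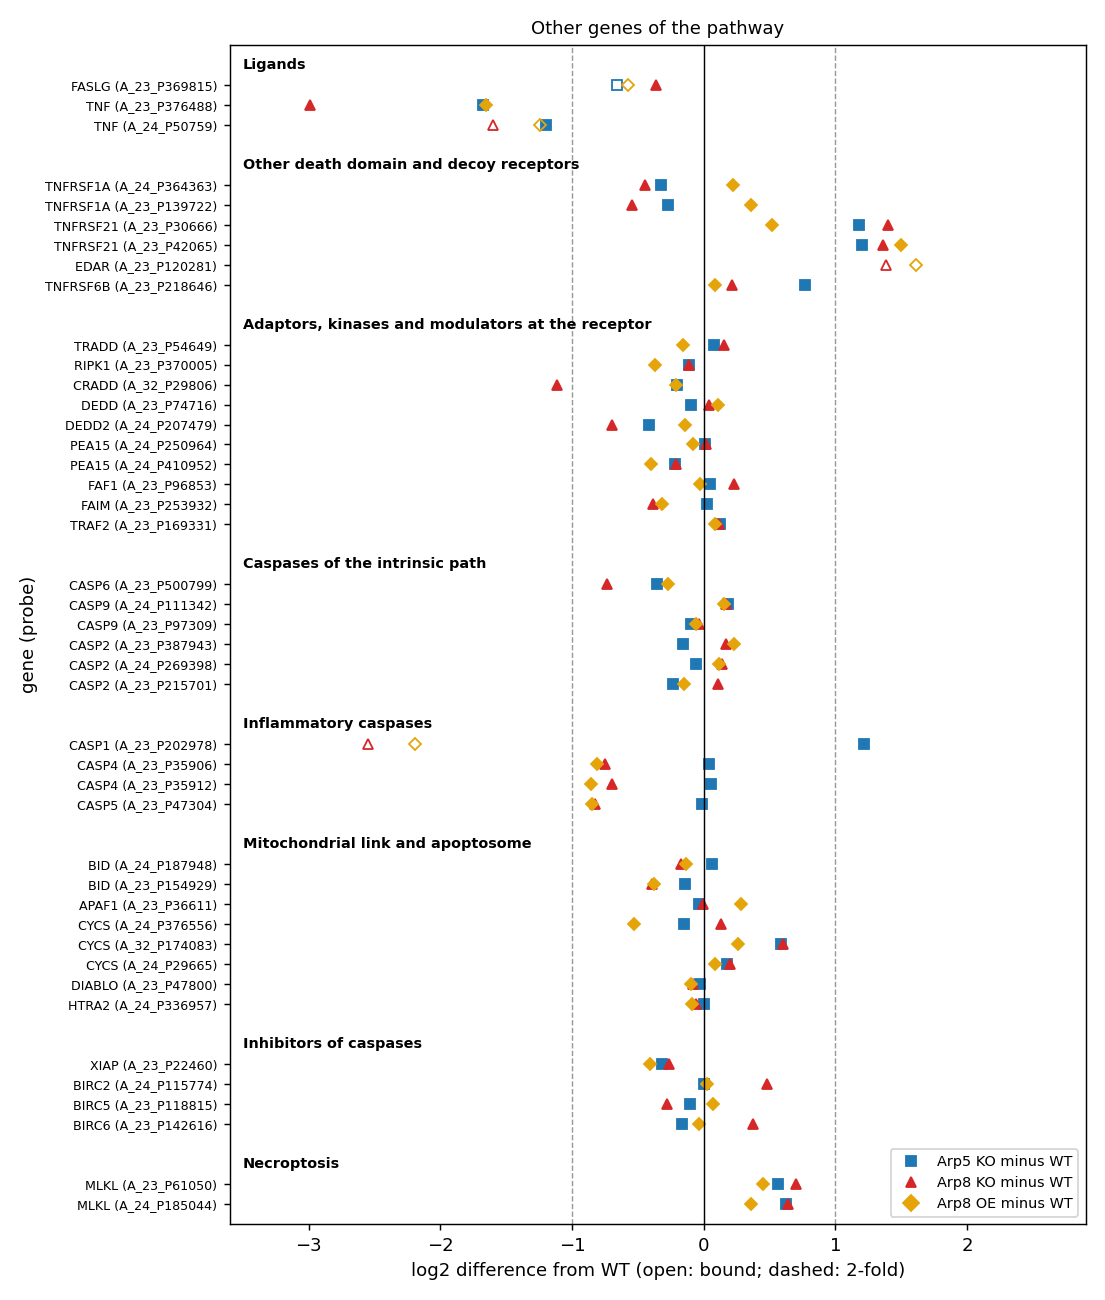
Log2 differences from WT (horizontal axis) of the other pathway genes, with 1 row for each probe compared, grouped by list, for Arp5 KO, Arp8 KO and Arp8 OE. Open symbols are bounds, for probes that only 1 of the compared arrays measured well above background, dashed lines mark 2-fold, and each symbol is 1 array against 1 array. TNF lies at the left in all 3 comparisons, TNFRSF21 at the right, and the intrinsic caspases, mitochondrial factors and inhibitors lie within 2-fold of WT.

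FAS and the TRAIL receptor genes are textbook targets of the transcription factor p53, so a panel of 17 other p53 targets was set beside them. In Arp8 KO against WT, 14 of 26 probes of the panel (9 of 16 genes compared) were past 2-fold higher, with a median of 1.09 on the log2 scale, where 3.37% of all probes were. The count higher was 1 of 27 with a median of 0.18 in Arp5 KO, where 1.69% of all probes were. It was 1 of 26 with a median of 0.38 in Arp8 OE, where 2.96% of all probes were. Past 2-fold lower were 1 of 26 in Arp8 OE, where 2.15% of all probes were, and 0 in either knockout. CDKN1A, the cell cycle inhibitor p21, was above WT by 1.95 for Arp8 KO, 0.22 for Arp5 KO and 0.73 for Arp8 OE on its brighter probe. The dimmer probe gave 1.48 for Arp8 KO, -0.01 for Arp5 KO and 0.52 for Arp8 OE. MDM2, which targets p53 for degradation, was between 0.36 and 1.36 higher in Arp8 KO on its 4 probes. FAS, TNFRSF10B and the median of the panel were thus all highest in Arp8 KO. TNFRSF10A was not, with a difference from WT of -0.08 in Arp8 KO. In Arp8 OE, where the median of the panel was 0.38, FAS stood at -0.09. The part of p53 in the receptor levels was not tested.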

How the data were processed

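Total RNA of each of the 4 cultures was labelled with Cy3 for 1 one-color Agilent array. The authors deposited scanner files of linear intensity from Agilent Feature Extraction 10.10.1.1, whose processed signal is background-subtracted and not scaled between arrays, with the flags that this software sets (well above background, saturated, outlier). Their deposited series matrix was the same intensity multiplied by a constant of 1.99 to 2.29 on each array, without centring, and served as an alternative. The sources used here do not say how it was scaled. Columns of values that matched no sample numbered 0.

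Groups came from the genotype in the labels. The processed signal was divided by its 75th percentile over the 43376 non-control spots of the array and taken as log2, and spots of 1 probe were averaged without outliers. The call well above background was given to a probe when 50% or more of its spots had it, and 1 of the 2 arrays with this call sufficed for a comparison. A dim probe below the lowest level with that call on its array was raised to it, so its difference is a bound under this processing. That lowest level is not a limit of detection, because some probes above it lacked the call. Of 28354 probes with a RefSeq accession, 27210 matched a gene symbol in the GRCh38.p14 table. The headers name hg19, so no probe coordinates are given.

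With 1 array per group, past 2-fold was read beside the share of all compared probes. The number of arrays limits the precision. The 9 genes and the lists were chosen with earlier results of these data known. Named genes were the 9 genes with every probe, ACTR5 and ACTR8, pathway genes past 2-fold in a knockout, CDKN1A and MDM2, and the 5 genes most like the member probe with the widest range among those well above background on all arrays. Pathway genes named beside these, and the markers, were named to describe their lists and were partly chosen after their values were seen. There were 13 alternatives: scaling to the median or over probes well above background, quantile normalization, cyclic loess, normexp with an offset of 50 on the median spot signal, the series matrix, a stricter filter, no filter and no floor, means over a gene's probes, thresholds of 1.5-fold and 4-fold, Arp8 OE as reference, and leaving out probes beside a spot (centres within 20 pixels) bright on 1 array alone, by over 2-fold against each of the other 3. Another, FAS without such spots, was chosen after seeing the data. Some genes of the lists are not reported here and entered no list count. The scripts were tested on simulated data. Python 3.11.15, numpy 2.4.6, pandas 2.3.3, scipy 1.17.1, R 4.3.3, limma 3.58.1 and matplotlib 3.10.9 were used.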

Additional observations from a re-analysis of the deposited data

How the results depend on the processing

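No paired analysis was possible because each group had 1 array. Of the differences of single probes recomputed under the alternatives, 294 moved by less than 1 technical SD and 21 by more, and none of those past 2-fold changed sign. Of the counts and medians, 93 stayed within 1.5 times the reported count or 1 technical SD, and 15 did not. In Arp8 KO against WT the count of probes past 2-fold higher, reported as 3, was 1 with normexp, 5 with no filter and no floor, 0 at a 4-fold threshold and 1 with Arp8 OE as the reference, and the count lower, reported as 0, was 1 with no filter and no floor. In Arp8 OE against WT the count higher, reported as 1, was 0 with scaling to the median, 0 with normexp, 3 with no filter and no floor, 0 with the mean over a gene's probes, 2 at a 1.5-fold threshold and 0 at a 4-fold threshold, and the count lower, reported as 0, was 1 with no filter and no floor. In Arp5 KO against WT the count lower, reported as 0, was 2 with no filter and no floor and 1 at a 1.5-fold threshold, and the median, reported as -0.08, was 0.0285 over the 10 probes well above background on both arrays. The calls added without a filter rest on probes that 1 or both arrays did not measure well above background. The cause of the other changes was not tested. Under normexp the Arp8 KO difference of FAS was 0.75 and that of TNFRSF10B 1.51 and 0.89, while 1.04% of all probes were past 2-fold higher. Signal over background limits TNFRSF10A, TNFRSF10C, TNFRSF10D and CASP10, and 1 array per group limits every difference.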
